A study of Mus musculus with 4 samples.

Results

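The gasdermin genes described here are Gsdmc, Gsdmc2, Gsdmc3, Gsdmc4 and Gsdmd, 5 genes taken by symbol, of which 4 were among the 16015 genes listed in the expression table. Gsdmc was not analysed here, so the sum over the Gsdmc cluster is that of Gsdmc2, Gsdmc3 and Gsdmc4. The genes were selected on their difference between control and Bmal1 cKO mice in these same libraries. Their values in that comparison are therefore given as a description, with no test, and the tests below concern other genes.

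Gasdermins are pore-forming proteins. Each is held inactive until a protease cuts the linker between its amino-terminal and carboxy-terminal parts, and the freed amino-terminal part then assembles into pores in the plasma membrane, through which inflammatory cytokines such as interleukin-18 and interleukin-1 beta leave the cell and which can end in lytic death, pyroptosis. GSDMD is the main target of the inflammatory caspases 1 and 4 (caspase-11 in mice), downstream of inflammasome sensors. The mouse carries a tandem cluster of Gsdmc genes where the human genome has a single GSDMC. In the mouse gut these paralogs are known as epithelial genes that respond to type 2 cytokines acting through STAT6, and caspase-8 can cut human GSDMC.

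RNA was sequenced from colonic epithelial cells of 2 control mice and 2 Bmal1 cKO mice collected on day 7 of a colitis model, in which 3% dextran sulfate sodium (DSS), an agent that damages the colonic epithelium, was given in the drinking water for 5 days and followed by 2 days of plain water. Bmal1 (Arntl) encodes the transcription factor that, with CLOCK, drives the circadian clock. The cKO mice carried Villin-CreERT2 and Bmal1 fl/fl, so that tamoxifen, injected on 5 consecutive days, deletes the floxed allele in cells that use the Villin promoter, the intestinal epithelium. The controls, labelled WT, are described in the study's methods as Bmal1 fl/fl littermates without the Cre, and all mice were C57BL/6 animals aged 2 to 4 months that received DSS, so no untreated level is at hand. Each library is labelled as a numbered mouse. The comparison asks how loss of Bmal1 in the gut epithelium changed gene expression during DSS colitis.

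The libraries held 10312791 to 14156639 reads on listed genes. Of 13983 genes tested, 29.0% were called higher and 27.7% lower in cKO at an adjusted p under 0.05 (limma, Benjamini-Hochberg), with a median log2 fold change of -0.04. With each library scaled to its total instead, the calls were 3091 higher and 4885 lower against 4059 and 3871, and the median was -0.26. Reads on Arntl, counted over the whole gene and so also outside any deleted part, came to 358 and 342 normalized counts in the controls and 341 and 289 in the cKO libraries, a log2 fold change of -0.16 with a limma adjusted p of 0.389. The gene's count thus differed little between the labels, and cKO below means the libraries labelled Bmal1 cKO. The epithelial markers Krt8 and Krt19, keratins of simple epithelia, were abundant in every library, at 33319 to 39915 and 20040 to 26178 normalized counts. Of 8 epithelial markers, none rose and 2 fell, and 5 were called lower with library total scaling or with DESeq2 and 4 without control 1. With GC and length corrected, 3 were called higher and 1 lower, and Krt8 and Krt19 were among those higher, at log2 fold changes of 1.05 and 0.82 (limma adjusted p = 0.00947 and 0.0227). The control libraries also held more leukocyte and stromal marker RNA: all 23 tested leukocyte markers had a negative log2 fold change (20 called lower), with the 24 listed summing to 20499 and 29531 in control against 4431 and 4239 in cKO, and the 12 stromal markers (11 called lower) summed to 16001 and 3787 against 459 and 539. Within the controls, control 1 was the higher in the stromal sum and control 2 in the leukocyte sum. The neutrophil genes S100a8 (1424 and 8066) and S100a9 (1096 and 7187) set the latter order, whereas 17 of the 24 leukocyte markers, among them Ptprc (1259 and 745) and Lyz2 (3749 and 1335), were higher in control 1. S100a9, Ptprc and Lyz2 were picked after their values were seen. No marker of either list was at 0 in both cKO libraries. The calls of lower leukocyte and stromal markers dropped to 10 and 6 without cKO 1 and to 11 and 7 without cKO 2.

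Gsdmc2, Gsdmc3 and Gsdmc4 lie side by side on the minus strand of mouse chromosome 15 in GRCm38, at 63824346 to 63845177 for Gsdmc2 (ENSMUSG00000056293), 63857724 to 63878558 for Gsdmc3 (ENSMUSG00000055827) and 63891264 to 63912297 for Gsdmc4 (ENSMUSG00000055748). Gsdmd (ENSMUSG00000022575) lies on the plus strand of the same chromosome at 75862327 to 75867408. The coding sequences of Gsdmc2, Gsdmc3 and Gsdmc4 were each 1443 bases long, for 480 residues, against 1464 bases and 487 residues for Gsdmd and 1407 bases and 468 residues for Gsdmc. Gsdmc2 and Gsdmc3 were identical at 97.1% of aligned coding bases, and each was identical to Gsdmc4 at 93.8%. Gsdmc stood farther from these paralogs, at 87.0% to 87.5%, and Gsdmd shared 58.2% to 60.1% of bases with any of them. The first 90 coding bases, from the GENCODE transcripts of GRCm38, are shown because a read from this stretch can hardly be assigned to 1 of Gsdmc2, Gsdmc3 and Gsdmc4, and capitals mark bases unlike those of Gsdmc4.
Gsdmc: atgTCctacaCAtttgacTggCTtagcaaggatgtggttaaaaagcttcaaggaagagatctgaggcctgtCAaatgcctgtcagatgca
Gsdmc2: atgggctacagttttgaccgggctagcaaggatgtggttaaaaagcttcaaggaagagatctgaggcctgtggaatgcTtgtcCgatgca
Gsdmc3: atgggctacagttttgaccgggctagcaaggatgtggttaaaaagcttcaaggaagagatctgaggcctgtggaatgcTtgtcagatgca
Gsdmc4: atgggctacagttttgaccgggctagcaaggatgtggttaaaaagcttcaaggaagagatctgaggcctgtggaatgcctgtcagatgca

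Gsdmc differed from Gsdmc4 at 9 of these 90 bases, Gsdmc2 at 2 and Gsdmc3 at 1. The 90-base coding window in which Gsdmc2, Gsdmc3 and Gsdmc4 differ most is shown beside it, since reads there do tell the paralogs apart. It spans coding bases 778 to 867 of Gsdmc2 and Gsdmc3 and 784 to 873 of Gsdmc4, and capitals mark the 22 positions at which they are not all alike.
Gsdmc2: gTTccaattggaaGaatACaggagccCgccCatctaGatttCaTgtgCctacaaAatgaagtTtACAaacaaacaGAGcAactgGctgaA
Gsdmc3: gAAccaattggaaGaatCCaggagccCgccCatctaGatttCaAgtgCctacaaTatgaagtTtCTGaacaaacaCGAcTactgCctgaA
Gsdmc4: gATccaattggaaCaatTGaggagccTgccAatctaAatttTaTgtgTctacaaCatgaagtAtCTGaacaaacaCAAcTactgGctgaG

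Gsdmc2 and Gsdmc3 differed at 13 of these bases, although they are the closest pair over the whole coding sequence. Over the full transcripts, 14.9% of the 150-base stretches of Gsdmc2, 18.0% of those of Gsdmc3 and 8.83% of those of Gsdmc4 occurred unchanged in another Gsdmc paralog, while none of the stretches of Gsdmd did. How the authors' counting treated reads that match several places is not given in the sources used here, so values of single Gsdmc paralogs are uncertain to that extent, and their sum is given beside them.

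The 3 paralogs of the Gsdmc cluster were together 9.39-fold higher in cKO than in control, and each of the 3 was higher in both cKO mice than in both control mice. Gsdmd went the other way, at 65.3% of its control level. Per kilobase of exon, the cluster stood at 1.49 and 0.728 times the level of Gsdmd in the controls and at 11.7 and 21.6 times in the cKO libraries. All 4 genes passed the filter on low values (10 normalized counts on average over the libraries), and since their change chose them, nothing is read from their counts among the calls, 3 of 4 among the 29.0% of genes called higher and 1 of 4 among the 27.7% called lower. Nor is anything read from the groups not overlapping, which 40.3% of tested genes did with higher and 41.7% with lower values in cKO.

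Gsdmc4 carried most of the cluster's reads. It was at 3115 and 1684 normalized counts in control 1 and control 2 and at 16811 and 23434 in cKO 1 and cKO 2. Both cKO libraries lay above both controls, and the lower cKO library was 5.40 times the higher control. The group means were 2399 ± 1012 and 20123 ± 4683 (SD over 2 mice), and the log2 fold change was 3.11 ± 0.50 (SE from the 4 libraries, also below for the members).

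Gsdmc2 was at 1169 and 379 normalized counts in the controls and at 7737 and 8941 in the cKO libraries. The controls were far apart, control 1 being 3.08 times control 2, while the cKO libraries were close, and the groups did not overlap. The means were 774 ± 558 and 8339 ± 852 (SD, n = 2), a log2 fold change of 3.64 ± 0.82.

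Gsdmc3 was the scarcest of the Gsdmc paralogs and the one with the largest fold. It was at 124 and 44.0 normalized counts in the controls, which rest on 147 and 52 reads, and at 1669 and 2613 in the cKO libraries. The lower cKO library was 13.4 times the higher control. The means were 84.1 ± 56.7 and 2141 ± 667 (SD, n = 2), 25.5-fold apart, and the log2 fold change was 4.80 ± 0.80.

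The sum of these paralogs was 4408 and 2107 normalized counts in the controls and 26218 and 34988 in the cKO libraries. Control 1 held 2.09 times the sum of control 2, cKO 2 held 1.33 times that of cKO 1, and the lower cKO library was 5.95 times the higher control. The log2 fold change of the sum was 3.31 ± 0.57, and it ran from 2.78 to 3.84 when each of the 4 mice was left out in turn. As a share of all reads on listed genes, the cluster took 0.0378% and 0.0176% in the controls and 0.191% and 0.251% in the cKO libraries.

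Gsdmd, the gasdermin cut by inflammatory caspases, was at 3263 and 3233 normalized counts in the controls and at 2454 and 1786 in the cKO libraries. The controls were nearly equal, the cKO libraries were lower and further apart, and the groups did not overlap. The means were 3248 ± 20.9 and 2120 ± 473 (SD, n = 2), a log2 fold change of -0.63 ± 0.23. This value moved with a correction for base composition. Across the tested genes, log2 fold change and the GC content of the longest transcript had a Spearman correlation of -0.61, given as a description since all genes share the same 4 libraries. The Gsdmd transcript has 54.4% GC and the 3 Gsdmc paralogs 44.1% to 45.6%, against a median of 49.5% over all tested genes. With GC content and transcript length regressed out of each library, the log2 fold change was -0.09 for Gsdmd and 2.76 for the sum of the Gsdmc paralogs. Whether base composition set the Gsdmd difference was not tested.

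**Figure D1:**
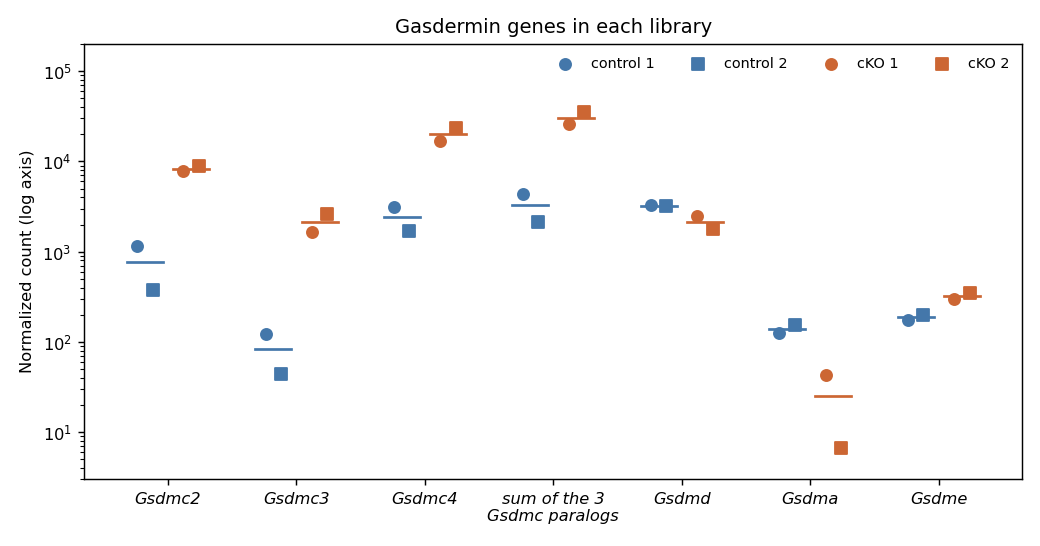
Normalized counts (vertical log axis) of the 4 gasdermin genes, the sum of the 3 Gsdmc paralogs, and the other listed gasdermins Gsdma and Gsdme, with 1 point per library and bars at the group means. Both cKO libraries (orange) sit above both controls (blue) for Gsdmc2, Gsdmc3, Gsdmc4 and their sum, at 26218 and 34988 against 4408 and 2107, and below them for Gsdmd.

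Levels of different genes were compared per kilobase of exon. In the controls, Gsdmd stood at 1366 ± 8.79 normalized counts per kilobase and Gsdmc4 at 1150 ± 485, which did not differ beyond their spread, followed by Gsdmc2 at 334 ± 241 and Gsdmc3 at 36.1 ± 24.3 (SD, n = 2). In the cKO libraries, Gsdmc4 led at 9642 ± 2244, followed by Gsdmc2 at 3602 ± 368. Gsdmc3 at 920 ± 287 and Gsdmd at 892 ± 199 then overlapped. Among all listed genes ranked per kilobase within a library, Gsdmc4 moved from places 306 and 685 in the controls to places 31 and 18 in the cKO libraries, and Gsdmc2 from 1106 and 3802 to 116 and 104. Gsdmc3 moved from places 7989 and 10617 to 899 and 537. Gsdmd went from 338 and 353 to 569 and 883.

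The make-up of the cluster also differed between the groups. Gsdmc3 held 2.82% and 2.09% of the reads on the 3 paralogs in the controls (exact 95% binomial intervals 2.39% to 3.3% and 1.56% to 2.73%) and 6.37% and 7.47% in the cKO libraries (6.07% to 6.67% and 7.15% to 7.79%). The intervals cover counting error only. Gsdmc4 held 70.7% and 79.9% of the reads in the controls and 64.1% and 67.0% in the cKO libraries. The share of Gsdmc2, at 26.5% and 18.0% in control and 29.5% and 25.6% in cKO, overlapped between the groups. Per kilobase, Gsdmc4 exceeded Gsdmc3 28.0- and 42.6-fold in the controls and 11.2-fold in cKO 1 and by slightly less in cKO 2, and Gsdmc2 exceeded Gsdmc3 9.47- and 8.66-fold against 4.66- and 3.44-fold. The ratio of Gsdmc4 to Gsdmc2 was 2.96 and 4.92 in control and 2.41 and 2.91 in cKO, so that control 1 and cKO 2 were nearly equal. Of the 3 shares, that of Gsdmc3 was thus higher and that of Gsdmc4 lower in both cKO mice, as a description and within the uncertainty of reads that match several paralogs.

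**Figure D2:**
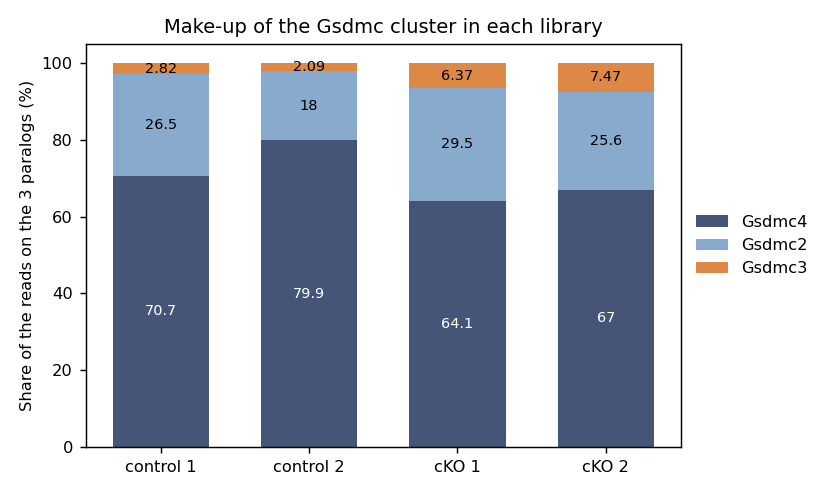
Share of the reads on Gsdmc2, Gsdmc3 and Gsdmc4 (vertical axis, percent, stacked to 100) that each paralog took in each of the 4 libraries. Gsdmc4 is the largest part throughout, and Gsdmc3 takes 6.37% and 7.47% in the cKO libraries against 2.82% and 2.09% in the controls.

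A promoter sequence was at hand in the RefSeq table (GRCm38.p6) for Gsdmc3 alone among these genes. The 250 bases before its start site, chr15:63878559-63878808 on the minus strand, are shown because Gsdmc3 had the largest fold.
Gsdmc3 promoter: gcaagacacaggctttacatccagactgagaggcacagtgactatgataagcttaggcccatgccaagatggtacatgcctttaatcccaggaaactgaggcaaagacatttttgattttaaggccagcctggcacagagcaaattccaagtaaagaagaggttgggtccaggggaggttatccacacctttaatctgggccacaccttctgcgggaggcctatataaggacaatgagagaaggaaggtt
The window from 250 bases before to 50 bases after the start was searched on both strands for CACGTG, the E-box bound by BMAL1 and CLOCK, for the STAT6 site (TTC and GAA with 4 free bases between), the STAT site TTCNNNGAA, the interferon regulatory factor site (GAAA, 2 free bases, GAAA), the CDX site TTTATNG and the TATA box TATAAA. None of these exact strings was found in it. Variants were not searched, so tatataag near the end of the sequence shown, a near match to TATAAA, was not counted. Of 32851 promoters of the same length, 7.15% held CACGTG, 6.95% the STAT6 site, 8.3% TTCNNNGAA, 3.44% the interferon regulatory factor site, 10.9% TTTATNG and 13.6% TATAAA.

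The tested genes beside the cluster had smaller differences than the paralogs, which were chosen for theirs, so nothing is read from this gap. Fam49b, the nearest listed gene at 16.8 kb, was at 1023 and 911 normalized counts in control and 1229 and 1188 in cKO, a log2 fold change of 0.32 ± 0.10 (limma SE, as for all genes below) with a limma adjusted p of 0.0413. This call did not hold: it was lost with any mouse left out (limma adjusted p = 0.0542 to 0.154), with library total scaling (0.477), with edgeR (0.0566) and with DESeq2 (0.0880), and with GC content and length corrected Fam49b was called lower, at -0.83 (limma adjusted p = 0.00526). Asap1, a GTPase-activating protein of the Arf family at 175 kb, had a log2 fold change of -0.35 ± 0.14 (limma adjusted p = 0.0749), and of -0.56 (limma adjusted p = 0.0244) with the correction and called lower also with library total scaling (0.0170). Of the 8 tested genes among the 5 nearest on each side, 3 were called higher and 1 lower, beside 29.0% and 27.7% of all tested genes. Their log2 fold changes ran from -2.08 for Myc, the proliferation-driving transcription factor 1834 kb away, to 1.52 for Efr3a at 1875 kb. Around Gsdmd, 8 neighbours were tested, 1 was called higher and 3 lower, beside the same shares of all tested genes. Zc3h3, at 20.4 kb, had a log2 fold change of -1.84 ± 0.26 (limma adjusted p = 0.00312), Top1mt one of -0.90 ± 0.22 (limma adjusted p = 0.0188) and Eef1d, a subunit of translation elongation factor 1, one of -0.36 ± 0.11 (limma adjusted p = 0.0402). The calls on Top1mt and Eef1d were lost with any mouse left out (limma adjusted p = 0.0605 to 0.106 and 0.0603 to 0.168). After the GC and length correction, the calls on Zc3h3 (adjusted p = 0.0579, limma) and Top1mt (0.384) were lost, and Naprt and Pycrl turned from -0.32 and -0.12 to 0.92 and 0.82 and were called higher (limma adjusted p = 0.00918 and 0.0120), so that Ly6g2, Naprt and Pycrl were higher and Eef1d alone lower.

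**Figure D3:**
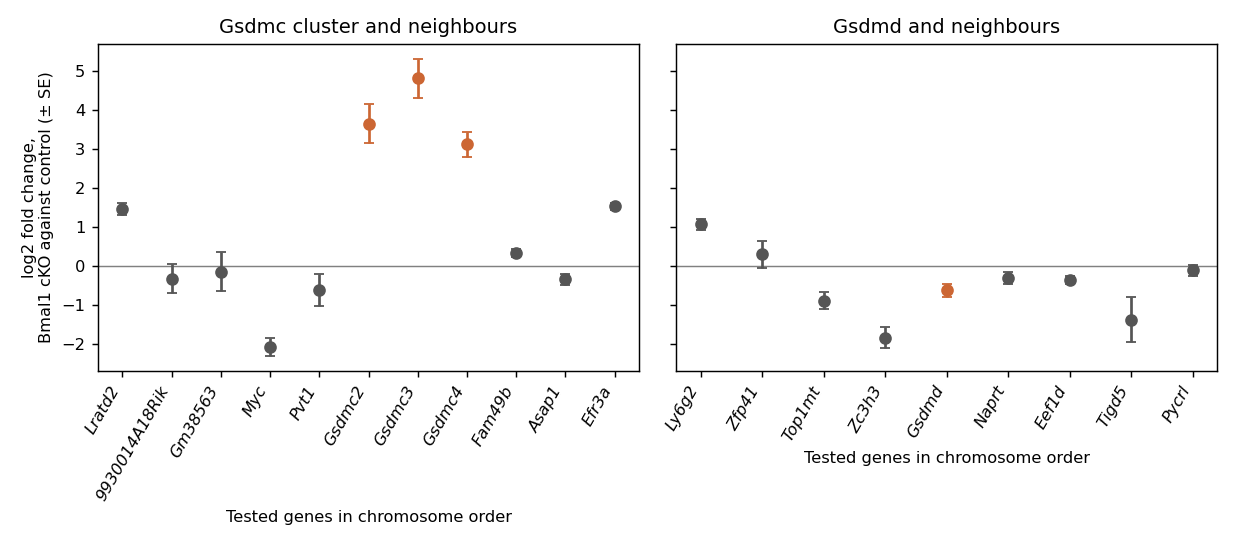
log2 fold change between cKO and control (vertical axis, with limma SE) of the tested genes around the Gsdmc cluster and around Gsdmd, in chromosome order, with the gasdermins in orange. The 3 Gsdmc paralogs, chosen for their difference, stand at 3.11 to 4.80 and their tested neighbours between -2.08 and 1.52.

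Of the other mouse gasdermins, Gsdma and Gsdme were listed. Gsdma, best known from skin and the upper gut, was at 126 and 154 normalized counts in control and at 43.2 and 6.76 in cKO, and it fell, with a log2 fold change of -2.92 ± 0.82 (limma adjusted p = 0.0293). Gsdme, known as a hearing loss gene, was at 177 and 200 in control and at 299 and 351 in cKO, a log2 fold change of 0.78 ± 0.17 (limma adjusted p = 0.0113). The direction of Gsdme depended on the correction for GC content and length, under which it was -0.32 (limma adjusted p = 0.170), while Gsdma stayed at -2.99 (adjusted p = 0.0435). The call on Gsdma was lost without either control, and that on Gsdme without control 1 or without cKO 2.

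Of 8 tested proteases that can cut gasdermins, 4 rose and 2 fell, beside 29.0% and 27.7% of all tested genes. Casp1, the inflammasome caspase that cuts GSDMD and matures interleukin-18, was at 975 and 1107 normalized counts in control and at 3832 and 4036 in cKO, a log2 fold change of 1.92 ± 0.10 (limma adjusted p = 5.33e-04). Casp6 rose by 0.53 on the log2 scale (limma adjusted p = 0.0304). Casp4, which senses cytosolic lipopolysaccharide, stood at 722 and 604 in control and at 726 and 912 in cKO (0.30 ± 0.16, limma adjusted p = 0.155). Casp8, the initiator caspase that can cut GSDMC, stood at 2165 and 2230 against 2568 and 2467 (0.20 ± 0.09, limma adjusted p = 0.102). Gzma and Gzmb, the granzymes of cytotoxic lymphocytes, were low and fell, by 2.93 and 3.12 on the log2 scale (limma adjusted p = 0.00913 and 0.0343), beside the lower leukocyte markers. Without either cKO library, neither granzyme was called, and without control 1 only 1 of them. With the GC and length correction, 3 of these 8 were called higher and 3 lower. Casp4 then had a log2 fold change of -0.86 with a limma adjusted p of 0.0121, and Casp6 was no longer called. The call on Casp6 was also lost with library total scaling, with DESeq2 and without cKO 2 or either control (adjusted p = 0.0585 to 0.130), while that on Casp1 held under every alternative run.

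Of 13 tested inflammasome sensors and adaptor genes, 10 rose and 2 fell, beside 29.0% and 27.7% of all tested genes. Their median log2 fold change was 1.13 against -0.04 over all tested genes. Naip1 was at 3548 and 3487 normalized counts in control and 10234 and 10144 in cKO, a log2 fold change of 1.53 ± 0.09 (limma adjusted p = 5.33e-04). Naip6 was at 1786 and 2307 against 5829 and 5631, and Naip2 and Naip5 rose by 1.28 and 1.21. Naip proteins sense bacterial flagellin and type III secretion proteins for NLRC4, and their genes are near-identical neighbours whose reads may be split among them. Further members were picked after their values were seen: Pycard, the adaptor ASC, rose by 1.44 (limma adjusted p = 0.00100) and Nlrp6, an epithelial sensor, by 1.13 (limma adjusted p = 0.00512), whereas Nlrp3 and Mefv, sensors typical of myeloid cells, fell by 3.57 (limma adjusted p = 0.0250) and 3.08 (limma adjusted p = 0.00374), as the leukocyte markers did. Nlrp3, at 94.6 and 639 normalized counts in control, lost its call without cKO 1, cKO 2 or control 2 (limma adjusted p = 0.0904, 0.173 and 0.0918). Nlrp6 lost its call without cKO 2 (limma adjusted p = 0.0638). The calls on Naip1, Naip2, Naip5, Naip6, Pycard and Mefv held under every alternative run. After the GC and length correction, 6 of the 10 were still called higher, and without cKO 2 a count of 6 was called higher.

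**Figure D4:**
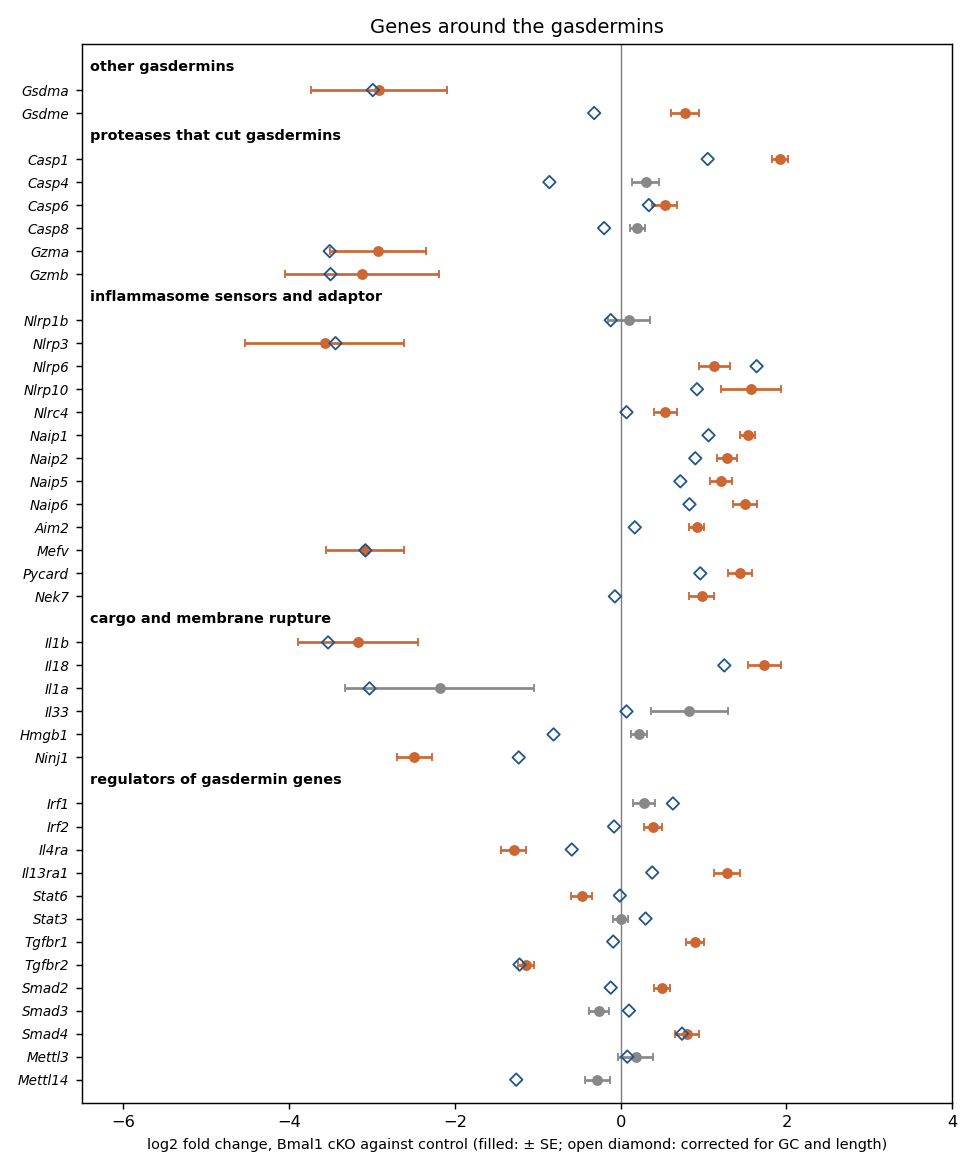
log2 fold change between cKO and control (horizontal axis) of genes tested in 5 lists around the gasdermins. Filled points with limma SE are orange where called and grey where not, and open diamonds give the value corrected for GC content and length, which moves Casp1 less than its distance from 0 but takes Gsdme across it.

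Of 6 genes for released cargo and membrane rupture, 1 rose and 2 fell, beside 29.0% and 27.7% of all tested genes. Il18, a cytokine that epithelial cells store and release through gasdermin pores, was at 877 and 693 normalized counts in control and at 2186 and 3066 in cKO, a log2 fold change of 1.73 ± 0.20 (limma adjusted p = 0.00155). Il1b was at 879 and 4261 against 265 and 173 and fell by 3.17 (limma adjusted p = 0.0148), with the higher control being control 2, the library with more neutrophil RNA of S100a8 and S100a9. The call on Il1b was lost without either cKO library. Ninj1, whose product ruptures the membrane of dying cells and which was picked after its values were seen, was at 386 and 483 against 68.9 and 83.8, a fall of 2.49 (limma adjusted p = 6.82e-04). Il33 and Hmgb1, alarmins held in the nucleus, had log2 fold changes of 0.83 ± 0.46 and 0.22 ± 0.10 (limma adjusted p = 0.176 and 0.122). With GC and length corrected, Hmgb1 turned to -0.81 and was called lower (limma adjusted p = 0.00513). Il18 and Ninj1 kept their calls under every alternative run, with Il18 at 1.25 and Ninj1 at -1.23 after the correction. Without either cKO library, 1 gene of this list was called lower.

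Of 11 genes for repair and restraint of gasdermin pores, 5 rose and 3 fell, beside 29.0% and 27.7% of all tested genes. Serpinb1a, an inhibitor that holds caspases and neutrophil proteases in check, rose by 0.63 (limma adjusted p = 0.0109), and the membrane repair genes Pdcd6ip (ALIX) and Vps4b by 0.72 and 0.66 (limma adjusted p = 0.00247 and 0.00377). Chmp4b, an ESCRT-III subunit that patches the membrane, fell by 0.45 (limma adjusted p = 0.0260). With the GC and length correction, 2 of the 11 were called higher and 2 lower. Serpinb1a was then at -0.01, Vps4b at -0.27 and Chmp4b at 0.17, none of them called, and Pdcd6ip stayed higher at 0.32. Serpinb1a lost its call without control 1 or either cKO library (limma adjusted p = 0.0510 to 0.0961), and Chmp4b without cKO 1 or either control (limma adjusted p = 0.105 to 0.117). Of 10 genes for lipidation and assembly of GSDMD pores, 2 rose and 4 fell, beside the same shares of all tested genes. The palmitoyltransferase genes Zdhhc5 and Zdhhc7 had log2 fold changes of -0.16 and 0.19 (limma adjusted p = 0.349 and 0.153), and Rraga and Rragc, Rag GTPases required for GSDMD pore assembly, of 0.11 and 0.56 (limma adjusted p = 0.380 and 0.00531). The call on Rragc was lost with the correction, at 0.21, and Zdhhc7 was then called higher at 1.18 (limma adjusted p = 0.00299). Zdhhc5 was called lower with library total scaling (limma adjusted p = 0.0495), and edgeR called 1 gene of this list higher and 2 lower. Without control 1 or cKO 2, 3 of the repair genes were called higher, and without cKO 1 or control 2, 1 of the lipidation and assembly genes was called lower (2 without control 1).

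Of 13 known or proposed regulators of gasdermin genes, 5 rose and 3 fell, beside 29.0% and 27.7% of all tested genes. The receptor chains for interleukin-4 and interleukin-13 had opposite signs. Il4ra was at 1560 and 1533 normalized counts in control and 719 and 553 in cKO, a log2 fold change of -1.29 ± 0.15 (limma adjusted p = 0.00145), and Il13ra1 at 1804 and 2438 against 4919 and 5293, one of 1.28 ± 0.16 (limma adjusted p = 0.00196). Stat6, the transcription factor downstream of both, fell by 0.47 (limma adjusted p = 0.0299), and Stat3 was at 0.00 ± 0.09 (limma adjusted p = 0.986). Of the receptors for transforming growth factor beta, Tgfbr2 fell by 1.14 (limma adjusted p = 7.44e-04) and Tgfbr1 rose by 0.90 (limma adjusted p = 0.00208). Smad4 and Smad2, which carry that signal, rose by 0.80 and 0.50 (limma adjusted p = 0.00531 and 0.00870), and Smad3 was at -0.26 ± 0.12 (limma adjusted p = 0.113). Irf2, which drives Gsdmd transcription, rose by 0.39 (limma adjusted p = 0.0258), and Irf1, with the same targets, was at 0.28 ± 0.13 (limma adjusted p = 0.121). The RNA methyltransferase genes Mettl3 and Mettl14 were at 0.18 ± 0.21 and -0.28 ± 0.15 (limma adjusted p = 0.476 and 0.159). After the GC and length correction, 2 of these 13 were called higher and 3 lower. Il4ra and Tgfbr2 stayed lower, at -0.59 and -1.22, and Smad4 stayed higher, at 0.74. The calls were lost for Il13ra1 at 0.38, Stat6 at -0.01, Tgfbr1 at -0.09, Smad2 at -0.12 and Irf2 at -0.08, so the signs of Tgfbr1, Smad2 and Irf2 turned. Irf1 at 0.63 and Mettl14 at -1.26 were then called. The call on Irf2 did not hold with any mouse left out (limma adjusted p = 0.0617 to 0.118), with DESeq2 (0.0533) or with library total scaling (0.216). That on Stat6 was lost without control 1 or either cKO library (limma adjusted p = 0.0873 to 0.160), that on Smad2 without control 1 or cKO 2 and with library total scaling (0.0509 to 0.0560), and that on Smad4 without cKO 2 (0.0601). Smad3 and Mettl14 were called lower with library total scaling (limma adjusted p = 0.0227 and 0.0335), and the list then had 3 called higher and 5 lower. Il4ra and Tgfbr2 kept their calls under every alternative run. Without cKO 2, 2 of the 13 were called higher, and without control 1, 3.

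Of 5 tested genes of the type 2 response, which is known to induce the Gsdmc cluster, none rose and 3 fell. Il5, Il13 and Il25 were not listed. Il4, the only cytokine of the list tested and picked after its values were seen, had 13 and 2 reads in control. It had 13 and 11 reads in cKO and a log2 fold change of 1.41 ± 0.95 (limma adjusted p = 0.249). The type 2 cytokines were thus hardly measured. Clca1 and Fcgbp, mucus proteins of goblet cells, fell by 3.03 and 1.83 (limma adjusted p = 0.00469 and 0.00622), and Sprr2a3, a small proline-rich protein, by 1.66 (limma adjusted p = 0.00173). Retnlb, a bactericidal resistin-like protein of goblet cells, was at 1278 and 1797 in control and 1285 and 2467 in cKO (0.23 ± 0.33, limma adjusted p = 0.572). With the correction, Fcgbp was at -0.73 and no longer called, and it also lost its call without either cKO library. Clca1 lost its call without cKO 1 (limma adjusted p = 0.0724), and Sprr2a3 kept its call under every alternative run. Goblet markers as a list, which shares Clca1, were lower too: 4 of 6 fell, and their sum was 175665 and 367730 in the controls and 49624 and 80148 in the cKO libraries. In bulk samples such as these, fewer cells of a type and less RNA per cell cannot be told apart. Without cKO 1, only 1 type 2 gene and 1 goblet marker were called lower. Over all the pathway lists, 28 of 68 tested genes were called higher, against 29.0% of all tested genes, and 20 lower, against 27.7%. With library total scaling, which shifts all genes down alike, the lists had 22 called higher and 24 lower, beside 3091 and 4885 of the 13983 genes. With the GC and length correction they had 16 and 19, beside 2522 and 2492 of 13975 genes. Without cKO 2 these counts were 16 and 13, and without cKO 1 they were 23 and 9.

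Among epithelial cell types, the summed markers of mature colonocytes, the absorptive surface cells, overlapped between the groups, at 42251 and 68724 in control and 56246 and 63186 in cKO. Of 11 tested, 4 rose and 3 fell, beside 29.0% and 27.7% of all tested genes. Krt20, a keratin of differentiated surface cells, rose by 0.68 (limma adjusted p = 0.0198), and Car1, a carbonic anhydrase, was at -0.21 ± 0.22 (limma adjusted p = 0.455). Slc26a3, the chloride/bicarbonate exchanger, and Slc37a2, a sugar-phosphate transporter, were picked after their values were seen and had the largest rises of the list, 2.13 (limma adjusted p = 0.00486) and 2.24 (limma adjusted p = 0.0109). Car4, Cdhr5 and Ceacam20, brush border genes picked likewise, fell by 1.97, 1.38 and 0.52 (limma adjusted p = 0.00595, 0.00451 and 0.0216). With library total scaling, 2 of the 11 were called higher. Krt20 lost its call with it (limma adjusted p = 0.0566) and without control 1 or either cKO library, and Ceacam20 without either control or cKO 2. Slc26a3, Slc37a2 and Cdhr5 lost theirs without either cKO library, and Car4 without cKO 1. Without cKO 2 none of the 11 was called higher, without cKO 1 only 1, and without either cKO mouse's library only 1 was called lower. Control 1, the control with the higher Gsdmc sum, had the lower sums of colonocyte, goblet, crypt, epithelial and leukocyte markers and the higher stromal sum. Of 9 markers of crypt stem and cycling cells, 3 rose and 3 fell, beside the same shares of all tested genes. Their sum was 16964 and 17484 in control and 23538 and 20765 in cKO. Their median log2 fold change was 0.01, and from -0.11 to 0.13 with a mouse left out. Top2a, a topoisomerase of dividing cells, was up by 0.92 (limma adjusted p = 0.00189) and Mki67 was at 0.01 ± 0.12 (limma adjusted p = 0.953). With GC and length corrected, 1 crypt marker was called higher, Top2a was at 0.14 and no longer called, and Mki67 was called lower at -0.42 (limma adjusted p = 0.0402). Of the colonocyte markers above, Cdhr5 and Ceacam20 then lost their calls, at -0.59 and -0.41, and Car1 was called lower at -0.72 (limma adjusted p = 0.0461). The part of cell composition in the differences of the gasdermin genes was not tested.

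**Figure D5:**
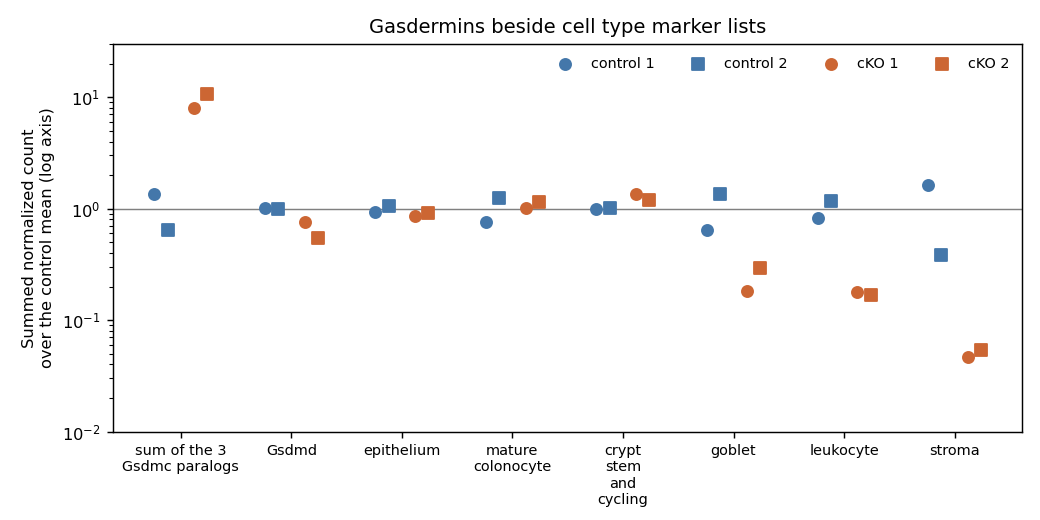
Sum of normalized counts of each marker list, of the 3 Gsdmc paralogs and of Gsdmd in each library, divided by the mean of the 2 controls (vertical log axis, grey line at 1). The cKO libraries stand above the controls for the Gsdmc sum and, by less, the crypt stem and cycling markers. They stand among the controls for mature colonocyte markers and below them for Gsdmd and for epithelium, goblet, leukocyte and stromal markers.

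The genes with the pattern nearest to the Gsdmc sum over the 4 libraries were sought among the 9979 genes that averaged 100 or more normalized counts, by the Euclidean distance between centred log2 values. They were Tnfsf10 (TRAIL, a death receptor ligand) at a distance of 0.407, the transporter gene Slc16a12 at 0.514, Cps1, a urea cycle enzyme, at 0.576, the apolipoprotein L gene Apol10a at 0.582 and Gm5431 at 0.614. Tnfsf10 was at 149 and 72.8 normalized counts in control and 1159 and 1048 in cKO, and so shared both the rise and the higher value in control 1. Apol10a, at 519 and 437 against 4244 and 5765, shared the higher value of cKO 2 more closely. For Gsdmd, the nearest were Mrpl28 at 0.0485, Phc1 at 0.0550, Dolpp1 at 0.0634, Rmnd5b at 0.0682 and Plekha7 at 0.0691. Mrpl28, a protein of the mitochondrial ribosome, was at 592 and 590 in control and 460 and 337 in cKO. With 4 libraries, such likeness describes shape only.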

How the data were processed

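RNA-seq of colonic epithelial cells gave 4 libraries, 2 mice per group by the labels. Reads were aligned with STAR to GRCm38 (mm10), per the labels, and the authors deposited gene counts divided by DESeq2 size factors, a normalized signal. Within 0.01, 100% of the values were whole multiples of 1 read, so whole reads were recovered. The deposited table also holds log2 fold changes, scores (test statistics) and p-values of the authors' own comparison, which were not used. The library kit is named differently in the labels and the methods, and whether counting used strand is not given in the sources used here, so overlapping or antisense genes cannot be told apart. The labels number the mice, and p-values measure only the spread between these libraries.

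Genes with a mean of at least 10 (13983) were tested on log2(normalized count + 1) with limma 3.58.1 (trend, two-sided, Benjamini-Hochberg over all genes, threshold 0.05). That scale understates changes of low genes. An exact permutation test of 2 against 2 libraries cannot go below 0.333, so single values carry none. Depth, 10312791 to 14156639 reads per library, limited low genes most. Alternatives were pseudocounts of 0.5 and 5, a minimum mean of 50, no minimum, scaling to library totals, edgeR 4.0.16 (TMM, quasi-likelihood) and DESeq2 1.42.0 on recovered reads, a loess correction for GC content and exon length (span 0.3), the replicate number as a block, and leaving out each mouse. The test code was tested on simulated data. Sequences and lengths came from GENCODE and RefSeq tables, and 16003 of 16015 genes matched by ID.

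The genes, lists and markers were chosen with earlier results of these data known. Named genes were all listed gasdermins, all tested proteases and regulators, the 4 most abundant tested genes of each other pathway list, the 2 most abundant of each marker list, the 5 nearest listed neighbours on each side, and the 5 genes most like the Gsdmc sum and Gsdmd. Others are said to be picked after their values were seen. Some genes of these lists are counted but not reported here by name.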

Additional observations from a re-analysis of the deposited data

How the results depend on the processing

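The log2 fold change of the Gsdmc sum kept its direction under every alternative run, from 2.76 to 3.31, and from 2.78 to 3.84 with a mouse left out. Gsdmc2 ran from 2.83 to 4.45, Gsdmc3 from 4.06 to 5.54 and Gsdmc4 from 2.67 to 3.56 with a mouse left out. Gsdmd ran from -0.86 to -0.40 with a mouse left out, and was -0.86 with library total scaling. Regressing out GC content and length moved Gsdmd to -0.09, Gsdmc4 to 2.53, the genes called higher from 4059 to 2522 and lower from 3871 to 2492, and the pathway genes called higher from 28 to 16. The cause was not tested. Leaving out a mouse (the lone sample then being assumed to vary like the other group) gave 2654 to 3154 genes called higher and 2205 to 2852 lower, 16 to 25 pathway genes higher and 9 to 15 lower, and, of the neighbours of both loci (4 called higher and 4 lower), 3 higher and 2 to 3 lower. Removal of control 1, cKO 1 or cKO 2 lowered the genes called lower by over 1.5 times, to 2380, 2389 and 2205, and removal of cKO 2 also the genes called higher, to 2654. Fewer libraries leave fewer degrees of freedom. edgeR on recovered reads called 3861 genes higher and 3812 lower, and DESeq2 3719 and 3803. The replicate block gave 3899 and 3789, and ended the calls on Fam49b (limma adjusted p = 0.0515) and Eef1d (0.0572), while Il33 was called higher under it (0.0127). Deviations of same-numbered mice correlated at -0.0908 across genes, which gave no sign of pairing by number. With 2 mice per group this cannot settle whether the numbers pair the mice. Depth limits the folds of scarce genes: Gsdmc3 rests on 147 and 52 reads in the controls, Gsdma on 42 and 5 in the cKO libraries, Gzma on 5 and 4 and Gzmb on 2 and 3.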
